A study of Mus musculus with 6 samples.

Results

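The Ifi200 family was examined here as 9 genes, Ifi203, Ifi204, Ifi205, Ifi206, Ifi207, Ifi209, Ifi211, Ifi213 and Mndal, found by their Entrez identifiers among the 36528 gene identifiers of the series. They lie on chromosome 1 (GRCm38, chr1:173468485-174031755, a span of 563 kb), interspersed with the family genes Ifi214, Ifi208, Ifi203-ps and Ifi202b, which are not among the 9. The neighbouring family gene Aim2 was set apart by the choice of members. The members were chosen with their levels in these libraries known, so the comparison of groups is given for them as a description, and no call or interval printed for a member supports anything about the family.

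The libraries came from mouse HOXB-8 cells, a bone marrow line of myeloid progenitors held in division by a homeobox factor, which the extraction notes also call iMACs. The 3 libraries labelled Parental are Irf2 wild type and carry a control guide RNA named Luc. The 3 libraries labelled IRF2_KO come from cells given a guide RNA against Irf2 (gRNA2 in the notes), and no other treatment is named for either group. The labels do not say whether a group is 1 clone or a pool, or whether its 3 libraries came from separate cultures, so the spread between libraries may be technical.

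Proteins of this family, also called PYHIN or p200 proteins, as a rule pair an amino-terminal pyrin domain, which docks to pyrin domains of other proteins, with a carboxy-terminal HIN domain that binds DNA. AIM2, the best known of them, senses DNA in the cytosol and builds an inflammasome through the adaptor ASC, and IFI204 has been described as a DNA sensor that acts through STING. The mouse carries many more of these genes than the human genome, as a tandem array, and interferon induces several of them in myeloid cells. IRF2 belongs to the interferon regulatory factors, which bind repeats of GAAA in the promoters of interferon-induced genes.

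The promoters are shown first because most of those in the table hold one such repeat. The table of promoters used here (RefSeq, GRCm38.p6, 250 bases before the transcript start and 50 from it) had an entry for 8 of the 9 members, all but Ifi204. The element searched was GAAA, then any 2 bases, then GAAA, on both strands, and it was found in 7 of these 8. Among all genes of the table, 1079 of 27025 (3.99%) held it, and among its 32851 promoters 3.44% did. Several of the member promoters are near copies of each other, as given below, so these 7 matches are not independent. The lines below give 40 bases around the match, 5′ to 3′ on the gene's strand, with the match in capitals. The last 3 lines are family genes outside the 9 or a member without a match.
Ifi206: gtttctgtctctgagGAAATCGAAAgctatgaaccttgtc
Ifi213: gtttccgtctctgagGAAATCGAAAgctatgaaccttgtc
Ifi207: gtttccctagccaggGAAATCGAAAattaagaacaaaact
Mndal: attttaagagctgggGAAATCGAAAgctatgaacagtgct
Ifi203: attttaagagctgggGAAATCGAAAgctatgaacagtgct
Ifi211: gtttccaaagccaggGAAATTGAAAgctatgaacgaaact
Ifi205: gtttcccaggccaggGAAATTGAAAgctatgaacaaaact
Ifi208: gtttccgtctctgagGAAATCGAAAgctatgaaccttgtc
Ifi214: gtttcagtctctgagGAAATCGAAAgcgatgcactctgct
Ifi209: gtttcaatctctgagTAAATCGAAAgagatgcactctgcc

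The matched letters were GAAATCGAAA in 5 members (Ifi206, Ifi213, Ifi207, Mndal and Ifi203) and GAAATTGAAA in the pair Ifi211 and Ifi205. They stood close to the start, with the first base at position -40 in Ifi206, -73 in Ifi213, -41 in Ifi207, -36 in Mndal, -37 in Ifi211 and -35 in Ifi203, where 0 is the first transcribed base. In Ifi205 the first base was at -134, and that promoter held a second match, on the other strand, from 23 to 32. For Mndal and Ifi203 the table lists another start each, and these positions refer to the start whose window holds the GAAATCGAAA match. The other start of Mndal has a match with different letters, GAAAGAGAAA, on the other strand from -54 to -45, and the other start of Ifi203 has none. Ifi209 was the member without a match. The 40-base stretch nearest to it is that of Ifi214, with 4 mismatches. Within the 10 letters it differs by G1T, counted from 1 at the first base of the element: the Ifi214 base stands first and the Ifi209 base last.

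GAAATCGAAA is rare in mouse promoters. It occurred in 16 of 32851, or 0.0487%, and 7 of these 16 belong to the PYHIN array: the 5 members above with Ifi208 and Ifi214. GAAATTGAAA occurred in 0.116%. These exact letters were looked up after the family's promoters had been read. A match describes letters in this window and shows no binding, and no match says nothing about the factor.

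The promoters fall into sets by likeness. Ifi206 and Ifi213 were identical in 98.9% of aligned bases, and Ifi208 in 99.3% with Ifi206. Mndal and Ifi203 were identical in 97.6%, Ifi211 and Ifi205 in 94.0%, and Ifi207 in 88.4% with Ifi211. Ifi209 resembled Ifi214 (96.0%). Between sets the share lay lower, for example 66.8% for Ifi209 and Mndal. The promoters of a pair, Ifi206 and Ifi209, follow whole. Their levels differed widely in Parental, while both were among the most abundant members in IRF2_KO. Ifi204 overlapped Ifi206 in Parental and was also among the most abundant in IRF2_KO, but it has no promoter entry. Whether the promoter letters bear on these levels was not tested. The Ifi206 promoter (chr1:173491269-173491568, minus strand) has its element in capitals, and the Ifi209 promoter (chr1:173630609-173630908, plus strand) has the aligned 10 letters in capitals.
Ifi206: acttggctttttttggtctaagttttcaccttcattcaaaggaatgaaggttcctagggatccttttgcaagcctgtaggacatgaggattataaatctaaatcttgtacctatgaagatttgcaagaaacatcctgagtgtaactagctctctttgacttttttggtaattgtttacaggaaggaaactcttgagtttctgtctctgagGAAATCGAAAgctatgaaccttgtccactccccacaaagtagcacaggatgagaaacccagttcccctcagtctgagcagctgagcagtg
Ifi209: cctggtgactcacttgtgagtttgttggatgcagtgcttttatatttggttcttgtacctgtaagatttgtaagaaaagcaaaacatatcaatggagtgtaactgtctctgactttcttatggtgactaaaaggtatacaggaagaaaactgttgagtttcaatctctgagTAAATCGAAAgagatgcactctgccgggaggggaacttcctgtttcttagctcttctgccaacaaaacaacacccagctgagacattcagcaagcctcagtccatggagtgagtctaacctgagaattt

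**Figure D1:**
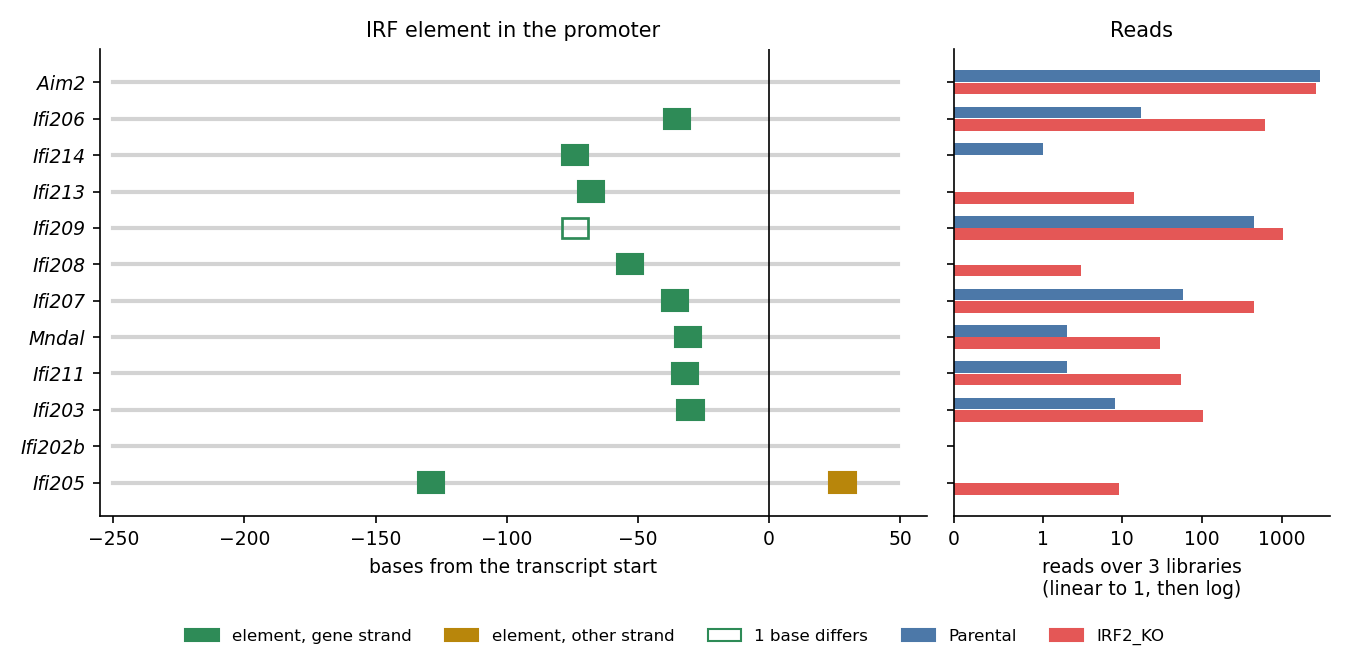
Left, position of the element (GAAA, any 2 bases, GAAA) in bases from the transcript start for each PYHIN gene with a promoter entry, in chromosome order (filled boxes; the open box in Ifi209 is the aligned stretch that differs at 1 base; Mndal and Ifi203 at 1 of their starts). Right, reads summed over the 3 libraries of each group, on an axis that is linear to 1 and logarithmic above it; Ifi208 and Ifi214 carry the element and have 3 reads or fewer in either group.

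In the 9 members, reads were few in Parental and more frequent in IRF2_KO. Reads of the 9 members summed to 176, 163 and 207 in Parental and to 985, 757 and 1004 in IRF2_KO. Scaled to the TMM-adjusted library total and given in the usual CPM unit, the sum was 4.81 ± 0.353 CPM in Parental and 29.8 ± 3.35 CPM in IRF2_KO (SD, n = 3 each), a ratio of 6.19. Most of the Parental signal was Ifi209, which took 80.9% ± 4.59 of the family's reads there and 38.4% ± 2.89 in IRF2_KO. Without Ifi209 the sum was 0.926 ± 0.261 CPM in Parental and 18.4 ± 2.83 CPM in IRF2_KO, a ratio of 19.9. In all 9 members every IRF2_KO library stood above every Parental library. The same held for 26.4% of the 13353 genes that passed the filter on low counts, a set without Ifi213, Mndal and Ifi205. Nothing is read from that difference, since the members were chosen on this contrast.

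Irf2 itself, the targeted gene, stood at 41.1, 42.4 and 41.1 CPM in Parental and at 40.3, 37.0 and 40.1 CPM in IRF2_KO (log2 fold change -0.08, edgeR adjusted p = 0.209), so its transcript level does not check the labels. A guide RNA can disrupt a reading frame without lowering the transcript. The total count per library was between 29070160 and 39925038, so that 3 reads correspond to 0.0751 to 0.103 CPM. In bulk RNA, more cells that express a gene and more transcript per cell cannot be told apart. Over the 17 macrophage markers the summed level was 627 to 636 CPM in Parental and 1704 to 1708 CPM in IRF2_KO, with 9 of 11 tested markers higher and 1 lower, while C1qb was at 0 in every library and C1qa, C1qc and Marco had at most 2 reads in a group. The 10 dendritic cell markers summed to 90.1 to 98.1 and 226 to 260 CPM, with 5 of 6 tested higher, 1 lower, and Cd209a and Siglech at 0. Bst2 alone made up most of both sums (58.3 and 188 CPM), and the marker called lower was Flt3 (17.7 and 9.83 CPM). The 15 neutrophil and granule markers, all tested, were higher in 6, lower in 4 and not past the test in 5 (11604 to 12613 and 9704 to 11208 CPM). The part of these lists in the rise of the family was not tested. Of the markers of the labelled line, Hoxb8 (127 and 135 CPM), Myb (644 and 474 CPM) and the promyelocyte gene Mpo (918 and 638 CPM) were abundant in both groups, with Myb and Mpo called lower in IRF2_KO. Of 5 progenitor markers tested, 3 were lower (Myb, Kit from 8.04 to 0.827 CPM and Mycn from 82.7 to 4.42 CPM), 1 was higher (Ly6a, from 5.32 to 18.6 CPM) and Hoxb8 did not pass. Cd34 had 2 and 3 reads and Meis1 was at 0. Markers of lymphoid and red cells were low: B cell, T cell, NK cell and erythroid lists summed to at most 3.83, 2.76, 0.0349 and 1.32 CPM in any library.

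**Figure D2:**
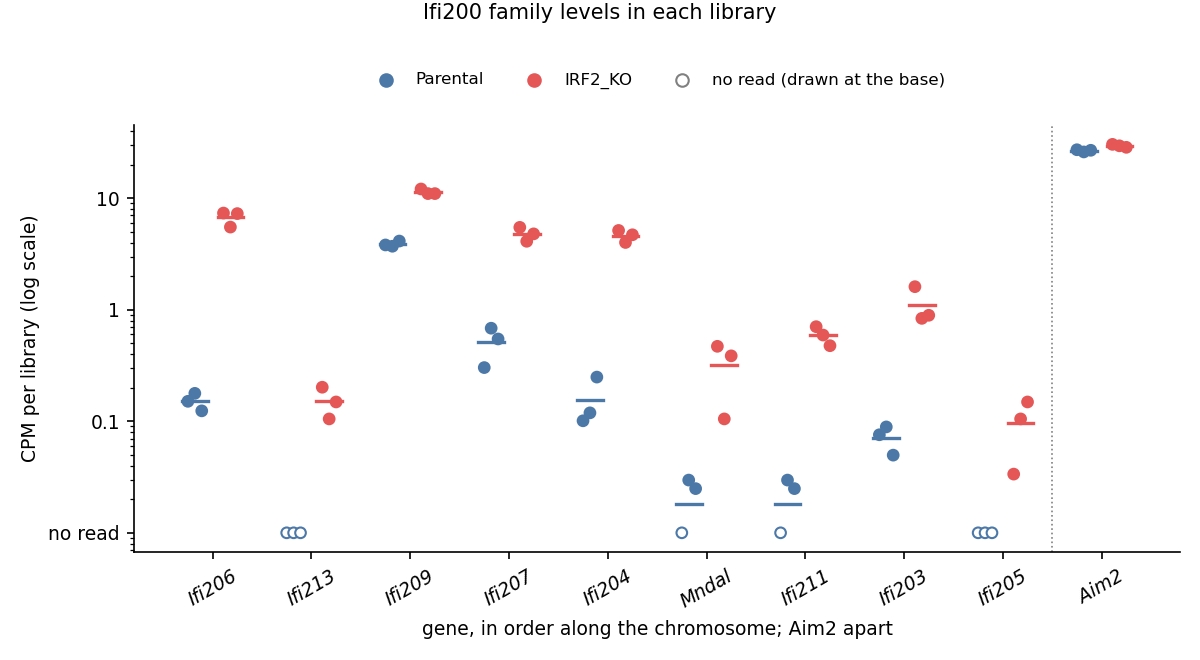
CPM of each member in each library on a logarithmic axis, with Parental in blue, IRF2_KO in red, short lines at the group means and open circles at the base for libraries with no read; Aim2 is set apart at the right. Every red point lies above every blue point of the same gene, and the gap is narrowest for Aim2.

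Ifi209 (Entrez gene 236312, chr1:173630859-173647928), also named Pyhin1 after the human gene, was the member with the highest level in Parental. Its values were 3.81, 3.71 and 4.13 CPM in Parental and 12.1, 11.0 and 11.0 CPM in IRF2_KO. The 2 sets did not overlap and were tight within each group. The log2 fold change from the fit over all genes was 1.55 (SE 0.09), a 2.92-fold difference, the smallest among the members tested.

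Ifi206 (Entrez gene 102639543, chr1:173468485-173491318), the member next to Aim2, had the highest ratio between the groups over all libraries, among members with a Parental read. Without Parental 3, Ifi204 was level with it (log2 fold changes of 5.35 for Ifi204 and 5.33 for Ifi206). Ifi206 had 6, 6 and 5 reads in Parental, or 0.151, 0.178 and 0.124 CPM, and 219, 158 and 245 reads in IRF2_KO, or 7.36, 5.51 and 7.28 CPM. IRF2_KO 2 was the lowest of its group and still far above the highest Parental library. The log2 fold change was 5.46 (SE 0.23), which is 43.9-fold.

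Ifi204 (Entrez gene 15951, chr1:173747293-173767069) encodes p204, the DNA sensor named above and the mouse protein most often set beside human IFI16. It stood at 0.101, 0.119 and 0.249 CPM in Parental and at 5.14, 4.01 and 4.70 CPM in IRF2_KO. Parental 3, with 10 reads against 4 in each of the others, was the highest of its group. The log2 fold change was 4.83 (SE 0.25), and 5.35 without Parental 3.

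Ifi207 (Entrez gene 226691, chr1:173723424-173741831), whose protein has been reported to bind STING, came second in Parental. It stood at 0.303, 0.683 and 0.547 CPM there and at 5.48, 4.11 and 4.79 CPM in IRF2_KO. Parental 1 was low within its group, and the groups lay far apart. The log2 fold change was 3.24 (SE 0.21), or 9.47-fold.

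Ifi203 (Entrez gene 15950, chr1:173920400-173942866) and Mndal (Entrez gene 100040462, chr1:173857215-173880382), named for its likeness to the human myeloid nuclear antigen, share nearly the same promoter. Ifi203 had 3, 3 and 2 reads in Parental and 48, 24 and 30 in IRF2_KO, a log2 fold change of 3.91 (SE 0.45). Mndal had 0, 1 and 1 reads in Parental and 14, 3 and 13 in IRF2_KO, a ratio of 18.5 (95% exact Clopper-Pearson interval from counting, 4.69 to 160). In both genes IRF2_KO 2 held the fewest reads of its group. Such intervals cover counting error only.

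Ifi211 (Entrez gene 381308, chr1:173896339-173913087) and Ifi205 (Entrez gene 226695, chr1:174011998-174031755) have promoters that are 94.0% identical. Ifi211 had 0, 1 and 1 reads in Parental and 21, 17 and 16 in IRF2_KO, a ratio of 33.3 (counting interval 8.78 to 282). Ifi205 had 1, 3 and 5 reads in IRF2_KO and none in Parental. With the Parental group set at 3 reads, the limit that 0 allows, the ratio was 3.70. This takes the IRF2_KO reads as exact, so it is no lower bound. Its IRF2_KO levels of 0.0336, 0.105 and 0.149 CPM reached the level of 3 reads in 2 of 3 libraries. Ifi213 (Entrez gene 623121, chr1:173566280-173599348), which an older name, Pydc4, describes by its pyrin domain alone, had 6, 3 and 5 reads in IRF2_KO and none in Parental. Set against 3 Parental reads in the same way, its ratio was 5.75.

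By the filter on low counts, 6 of the 9 members were tested, and Ifi213, Mndal and Ifi205 were not. Ifi209 and Ifi207 would have passed on their Parental libraries, but Ifi206, Ifi204, Ifi211 and Ifi203 passed only through IRF2_KO, so that each of these 4 had to differ. All 6 were called higher at an adjusted p under 0.05 (edgeR). Of the 13353 genes tested 47.2% were called, 23.6% as higher and 23.6% as lower. For 5 of the 6 members the rise was 8-fold or more, as it was for 0.532% of all genes. With no filter all 9 were called higher, beside 3103 genes higher and 3404 lower among the 20516 genes tested in that fit. None of these counts is evidence about the family, since the members were chosen on this contrast. The values nearest to the edge of the choice are those of Aim2, left out, and Ifi209, kept in.

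Levels can be compared between genes per length, for which the deposited size-factor-adjusted RPKM (reads scaled by gene model length and library size) was used. Only uniquely aligned reads are counted, so members that share much sequence with other genes, Ifi211 most of all, may be understated. In Parental, Ifi209 stood at 1.08 ± 0.0598 RPKM, then Ifi207 at 0.137 ± 0.0514, and every other member was at or below 0.0389 (n = 3). Ifi206 and Ifi204 overlapped in Parental, as did Ifi203 with Ifi211 and Ifi211 with Mndal. In IRF2_KO the order was Ifi209 (3.18 ± 0.159 RPKM), Ifi206 (1.74 ± 0.263), Ifi207 (1.29 ± 0.177) and Ifi204 (1.09 ± 0.129). Ifi209 was apart from Ifi206, while Ifi206 overlapped Ifi207 and Ifi207 overlapped Ifi204. A step down followed to Ifi211 (0.207 ± 0.0397 RPKM) and Ifi203 (0.180 ± 0.0692), which overlapped, and then to Mndal, Ifi205 and Ifi213 (0.0893, 0.0580 and 0.0552 RPKM), which did too. These remain low levels: 30.1% of genes tested were below Ifi209 in IRF2_KO and 18.4% in Parental, where the median gene tested stood at 8.80 RPKM.

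**Figure D3:**
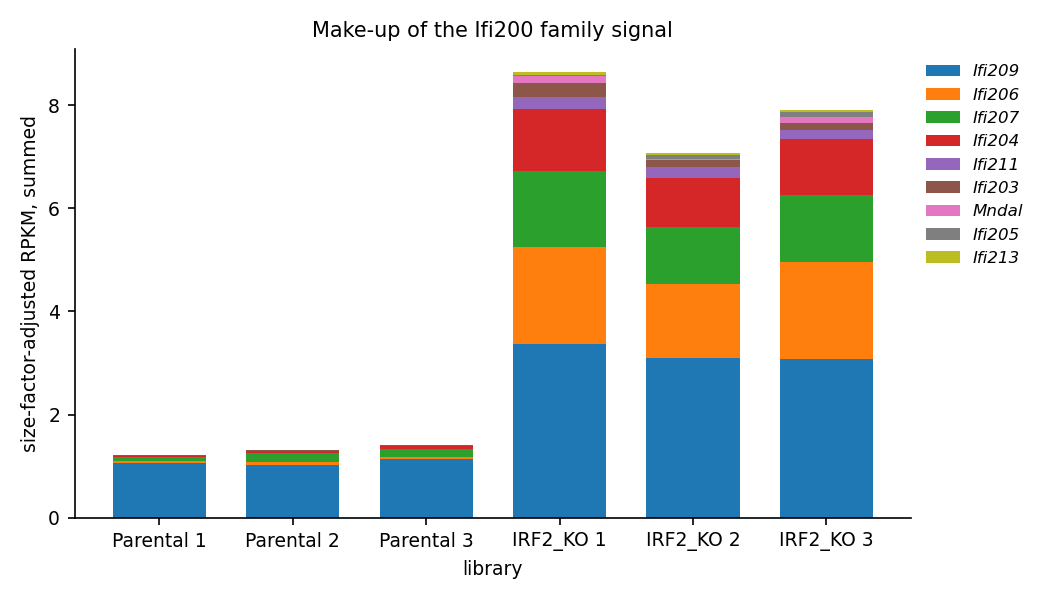
Size-factor-adjusted RPKM of the 9 members stacked for each library. Ifi209 makes up most of the Parental bars, and Ifi206, Ifi207 and Ifi204, in falling order, add most of the rest in the 3 IRF2_KO bars.

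The shares of the 4 most abundant members differed little between the IRF2_KO libraries, while those of the sparse members varied more, with Mndal at 1.51%, 0.415% and 1.36% and Ifi205 at 0.234%, 0.902% and 1.14%. Ifi204 took 13.9%, 13.4% and 13.9% of the family's summed RPKM in these libraries, and Ifi207 took 16.3% ± 0.596. Ifi206 took 22.0% ± 1.75, against 2.98% ± 0.629 in Parental, and Ifi209 took 40.5% ± 2.85, against 82.3% ± 4.59. The summed level was lowest in IRF2_KO 2 (7.07 RPKM, against 8.66 and 7.92), where Ifi209 took the largest share of its group (43.8%).

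How far each count stands for its gene depends on copies, because the authors counted only reads that align to 1 place. In the GENCODE M21 transcripts of Ifi211, 27.2% of all 50-base stretches occur in no other gene, while 44.7% also occur in Ifi205 and 30.1% in Ifi204. For Ifi209 the share was 66.3%, with 33.4% shared with Ifi214, and for Ifi206 it was 74.4%. The other 6 members were between 80.0% (Ifi204) and 92.7% (Ifi207). Over 75-base stretches Ifi211 was again the least unique, at 36.4%. The read length is not given in the sources used here. By this measure the count of Ifi211 is the most uncertain of the family, followed by those of Ifi209 and Ifi206.

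**Figure D4:**
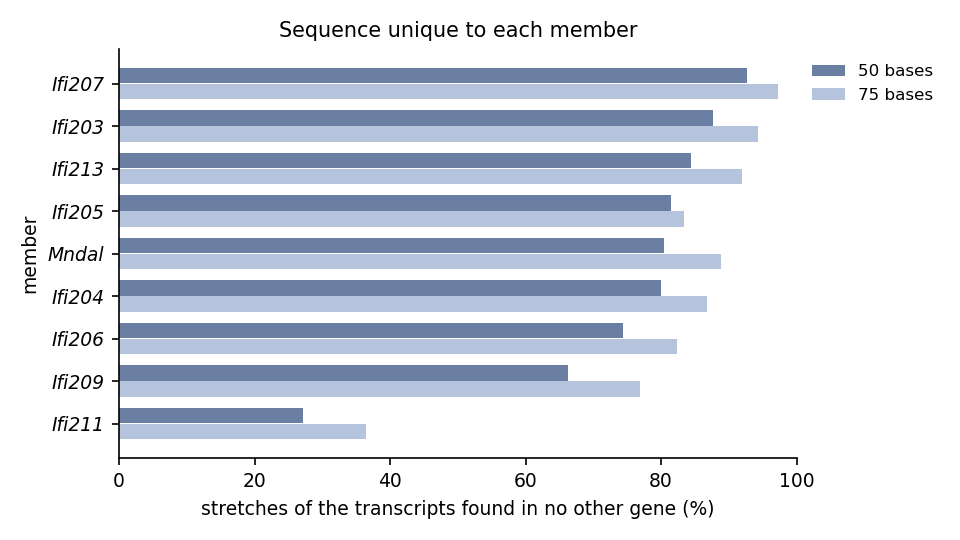
Share of 50-base (dark) and 75-base (light) stretches of each member's GENCODE M21 transcripts that occur in the transcripts of no other gene. Ifi211 stands apart at 27.2% and 36.4%, and the other members lie between 66.3% and 97.2%.

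The array holds further PYHIN genes, and they stayed near 0 with 1 exception. Ifi202b had no read in any library, Ifi214 and the pseudogene Ifi203-ps had 1 read each over all 6, and Ifi208 had 3 reads, all in IRF2_KO 2. A count of 0 over a library allows up to 3 reads. Both Ifi208 and Ifi214 carry GAAATCGAAA, from -58 and -79, and the 40 bases shown for Ifi208 are the same as those of Ifi213. The exception was Aim2 (Entrez gene 383619, chr1:173349547-173466040), with 26.7 ± 0.613 CPM in Parental and 29.5 ± 0.872 CPM in IRF2_KO. Its deposited level per length, 3.80 ± 0.0930 RPKM in Parental, was above that of every member in either group, with no allowance for shared sequence. Its log2 fold change was 0.14 (SE 0.06, edgeR adjusted p = 0.0466), a call that was lost with library size alone, no filter, DESeq2, both limma fits to RPKM and each library left out (0.0378 to 0.153 over all alternatives). The Aim2 promoter in the table held no such element.

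Genes around the array gave almost no reads. Of 27 genes with a count whose bodies lie within 500 kb of the members, among them olfactory receptors and the mast cell receptor gene Fcer1a, 26 had no read in any library and Olfr433 had 2. None could be tested.

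The other genes of cytosolic DNA sensing were taken as a list of 40, of which 39 were tested. Here 14 were higher, 9 lower and 16 did not pass, with a median log2 fold change of 0.03, against 23.6% higher, 23.6% lower and a median of -0.01 over all genes. Zbp1, which binds nucleic acids in the Z form and triggers necroptosis, rose from 1.73 ± 0.319 to 57.8 ± 1.79 CPM (log2 fold change 5.04, SE 0.09, edgeR adjusted p = 6.31e-18). It was the largest change of the list. Samhd1, which depletes the nucleotides that reverse transcription needs, rose from 86.0 ± 1.63 to 168 ± 2.95 CPM (edgeR adjusted p = 3.57e-12). Trim56, a ubiquitin ligase of the cGAS and STING route, rose from 10.5 ± 0.283 to 23.3 ± 4.02 CPM (edgeR adjusted p = 3.83e-08).

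Both adaptors named above, ASC and STING, had lower transcript levels in IRF2_KO. Pycard, which encodes ASC, the adaptor that pyrin domains dock to, fell from 53.8, 54.7 and 59.1 CPM to 13.2, 14.5 and 14.2 CPM (3.99-fold lower, edgeR adjusted p = 2.68e-14). Sting1, the adaptor for cyclic dinucleotides made by cGAS, fell from 22.4 ± 1.45 to 14.2 ± 0.266 CPM (log2 fold change -0.66, edgeR adjusted p = 4.71e-07). The groups did not overlap for either gene. Cgas itself rose by 0.33 on the log2 scale (SE 0.06, edgeR adjusted p = 0.000225). For Casp1, the inflammasome protease, the log2 fold change was 0.22 (SE 0.08, edgeR adjusted p = 0.0293), with libraries that overlap between the groups, while the kinase gene Tbk1 had a log2 fold change of -0.04 and did not pass.

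**Figure D5:**
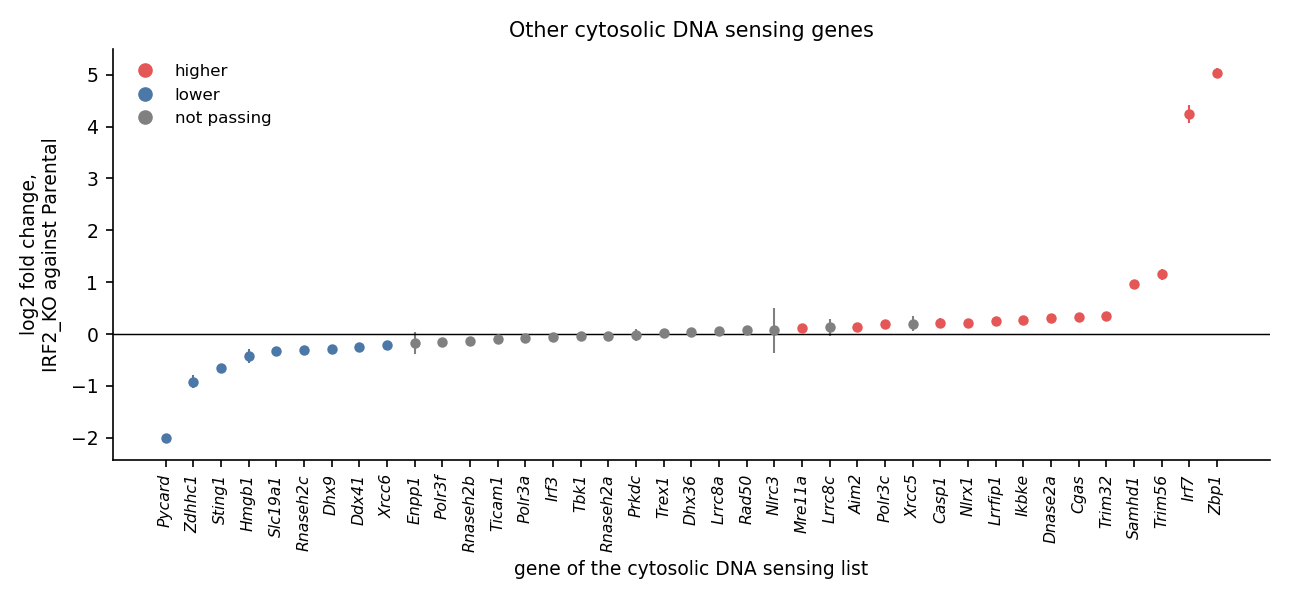
Log2 fold change (IRF2_KO against Parental) with its standard error for the 39 tested genes of the cytosolic DNA sensing list, in red where higher, blue where lower and grey where the test was not passed. Most lie between -1 and 1, with Zbp1 and Irf7 far above and Pycard lowest.

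Of the genes that carry the interferon signal, 13 of 21 tested were higher, 2 lower (Ifnar1 and Ifngr1, receptor chains) and 6 did not pass. The lower count was 1 without Parental 3, IRF2_KO 2 or IRF2_KO 3. The median log2 fold change was 0.26. Over all genes tested, 23.6% were higher and 23.6% lower, with a median of -0.01. Irf7, an interferon-induced factor that is also in the DNA sensing list, rose from 0.530, 0.534 and 0.398 CPM to 7.86, 10.6 and 9.13 CPM (log2 fold change 4.24, SE 0.18, edgeR adjusted p = 1.38e-12). Usp18, a negative regulator of the receptor, rose by 6.13 on the log2 scale (SE 0.10), and Irf9, a component of the complex that binds GAAA repeats, by 2.45 (SE 0.06).

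Genes most like the 3 most abundant members were looked up over the 6 libraries among 11124 genes outside the family with a mean of at least 2 CPM. Likeness was the root-mean-square difference of log2 CPM (with a prior count of 2 added before the log) centred on the Parental mean. Nearest to Ifi209 were Gpnmb and Lipg (0.07 each), nearest to Ifi206 were Zbp1 and Gbp7 (0.29 and 0.35), and nearest to Ifi207 were Fhdc1 and H2-T24 (0.30 and 0.36). With 2 groups, this measure mostly ranks genes by how close their change in this log2 CPM is to that of the member. The prior count shrinks that change where Parental reads are few, as in Ifi206, so the match is not to the log2 fold change given above.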

How the data were processed

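Transcripts were measured by RNA sequencing in 6 libraries of mouse HOXB-8 cells, 3 Parental and 3 IRF2_KO, grouped by their group label. The labels' protocols name a stranded kit for total RNA, and the molecule label gives polyadenylated RNA. GSNAP and the GRCm38 build are named in the submitters' processing notes, with no version of the aligner. Gene annotation and strand use were not given in the sources used here. Each deposited count is, per the file headers, the number of reads that align uniquely to a gene model, so reads shared by near-identical copies are missing. A size-factor-adjusted RPKM, deposited beside it per the file headers, was used for levels between genes. It held the same counts rescaled, as the ratio of count to RPKM differed between libraries by 1 factor over 14918 genes.

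Symbols and positions came from RefSeq (GRCm38.p6) for 31049 of 36528 identifiers. Libraries of a group differed by more than sampling noise (mean chi-square per gene of 2.78 to 10.1, where noise gives about 1), and none was treated as a repeat.

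Counts were fitted in R 4.3.3 with edgeR 4.0.16: filterByExpr (13353 genes kept), TMM factors (0.987 to 1.02), robust quasi-likelihood F-test, two-sided, Benjamini-Hochberg adjustment over all genes, threshold 0.05. Recovery of known changes was tested on simulated data. Standard errors come from the log2 fold change and the square root of its F statistic. Alternatives were other scalings, filters and thresholds, DESeq2 1.42.0, limma 3.58.1 (voom, and log2 of RPKM plus 0.1 or 1) and each library left out. Promoters and transcripts were read with Python 3.11.15 and aligned with Biopython 1.88.

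The members and lists were chosen with earlier results of these data known. Besides the members and the other PYHIN genes, the text names Irf2, up to 6 and 4 genes with the smallest adjusted p of the DNA sensing and interferon lists, flanking genes called, and the 2 genes most like each of 3 members. Among markers and list genes, others were named after their values were seen. Some results that these rules cover are not reported here.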

Additional observations from a re-analysis of the deposited data

How the results depend on the processing

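The direction held in every member tested under each of the other scalings, filters and tools and with each library left out. Log2 fold changes ranged from 1.39 to 5.58 for Ifi206, 1.01 to 1.59 for Ifi209, 1.01 to 3.48 for Ifi207, 1.01 to 5.35 for Ifi204, 0.26 to 5.19 for Ifi211 and 0.22 to 4.07 for Ifi203. The low ends came from limma on log2(RPKM + 1), where the added constant exceeds the level of most members. Leaving out Parental 1 or 2 moved Ifi211 to 4.26 or 5.19. At least 2-fold, 640 genes were higher and 302 lower (3146 and 3150 with no minimum), 3 DNA sensing genes higher and 1 lower, and 7 interferon signalling genes higher and 0 lower. The count of 2 lower interferon signalling genes became 1 with DESeq2, with limma on RPKM plus 0.1 or 1 and at an adjusted p under 0.01, and was 1 to 2 with a library left out (1 without Parental 3, IRF2_KO 2 or IRF2_KO 3). Ifi213, Ifi205 and Mndal are limited by depth, with at most 14 reads in a library. No paired analysis was possible because the labels carry no replicate number, batch or date.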

Other observations

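Outside the PYHIN array, 9 promoters of the RefSeq table hold the exact letters GAAATCGAAA, and 8 of these genes had a count. Of 5 tested, 3 were higher in IRF2_KO, 1 was lower and 1 did not pass. Ddx58, which encodes the RNA sensor RIG-I, rose from 9.49, 9.29 and 8.93 CPM to 42.2, 39.5 and 40.2 CPM (log2 fold change 2.14, SE 0.06, edgeR adjusted p = 1.59e-14). Pnrc1, a nuclear receptor coactivator gene, rose from 27.8 ± 1.93 to 39.1 ± 2.62 CPM, and Serpinb6a, a protease inhibitor gene, from 19.3 ± 0.186 to 24.0 ± 0.449 CPM. Ripk1, a kinase gene of cell death signalling, fell by 0.19 on the log2 scale (SE 0.05, edgeR adjusted p = 0.00276), and Parp11 did not pass (0.14, edgeR adjusted p = 0.138). The other 3, Gm31431, Six3os1 and Adcyap1, had at most 1 read in a group. The promoter windows with these 10 letters belong to genes that rose by different amounts, a gene that fell and genes with 1 read or none in a group. What the letters do at these genes was not tested.

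The looser element (GAAA, any 2 bases, GAAA) was counted over all tested genes outside the PYHIN family with a promoter entry. Of 373 with a match, 36.5% were called higher and 24.1% lower. Of 9505 without a match, 23.9% were called higher and 24.9% lower. A rise of 8-fold or more was called in 5.09% (19 genes) with a match and in 0.305% (29 genes) without. These are shares, given with no test.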
